A study of Drosophila melanogaster with 12 samples.

Results

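Genes whose transcript level was low in females mated once and higher again in females mated on consecutive days were described among all genes measured on whole-female arrays of Drosophila melanogaster. A gene was a member when its group mean on the log2 scale was at least 0.3 lower in single mated than in virgin females and at least 0.3 higher in double mated than in single mated females. Each gene was represented by the probe set with the highest mean over the 12 arrays. The members numbered 72 of 11982 genes, or 0.601%. Symbols starting with Bom, Cyp, Gst, Ugt and Obp, and the gene CG6830, were set aside by name. Of the 91 genes that met both thresholds, 19 were set aside in this way. The members were thus chosen by these same group means, so both steps, the single mated minus virgin difference (first) and the double mated minus single mated difference (second), are given below as a description and without a test.

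All females came from LHM, a large outbred wild-type laboratory population, and were collected as virgins on day 9 after the eggs were laid out, housed singly and given 0.375 mg of live yeast on day 12. The 3 groups were virgin females, single mated females and double mated females, with 4 arrays each, and double mated females mated in a first round on day 12 and again on day 13. The single mating is taken to be that of day 13, since the deposited text leaves these females without males on day 12 and ends at the start of the second round. Mates in both rounds were tester males from a cross between inbred lines derived from LHM, and mated females were frozen 6 hours after mating. Each array held RNA from a pool of 8 whole flies from its own extraction, so that fewer cells of a type and less RNA per cell cannot be told apart. Double mated females thus differed from single mated females in the number of matings and also in the time since the first of them, and these cannot be told apart. Brief carbon dioxide anesthesia on day 12 was given to virgin and single mated females too.

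Mating in Drosophila transfers sperm and seminal fluid peptides, and the female then lays more eggs, feeds more and shifts the way her gut and fat body use nutrients. Sugar uptake and storage, hormones that report the nutritional state, enzymes that clear toxins and plant compounds, and secreted defence proteins are all known to respond to feeding, stress or mating in adult flies. Ecdysteroid kinase-like genes encode a large insect family of predicted small-molecule kinases. They are named after a silkworm enzyme that inactivates ecdysteroid hormones by phosphorylation, and several fly members have been linked to detoxification.

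The deposited values are log2 summaries, and 1 unit is a 2-fold difference. Array medians over the genes ran from 7.98 to 8.12. Replicate 4 of the double mated group was the least like its group, the SD over genes being 0.26 of its distance from the mean of the other 3 arrays, against at most 0.19 for any other array. Counts of members and calls, and the values of some genes that changed most, are given with and without this array. Transcripts of the male accessory gland were near the floor of the arrays in every group, their summed level (the log2 of the sum of linear values over 10 of 12 listed genes) being 7.34 to 7.48 in virgins, 7.44 to 7.55 after 1 mating and 7.38 to 7.49 after both matings.

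**Figure D1:**
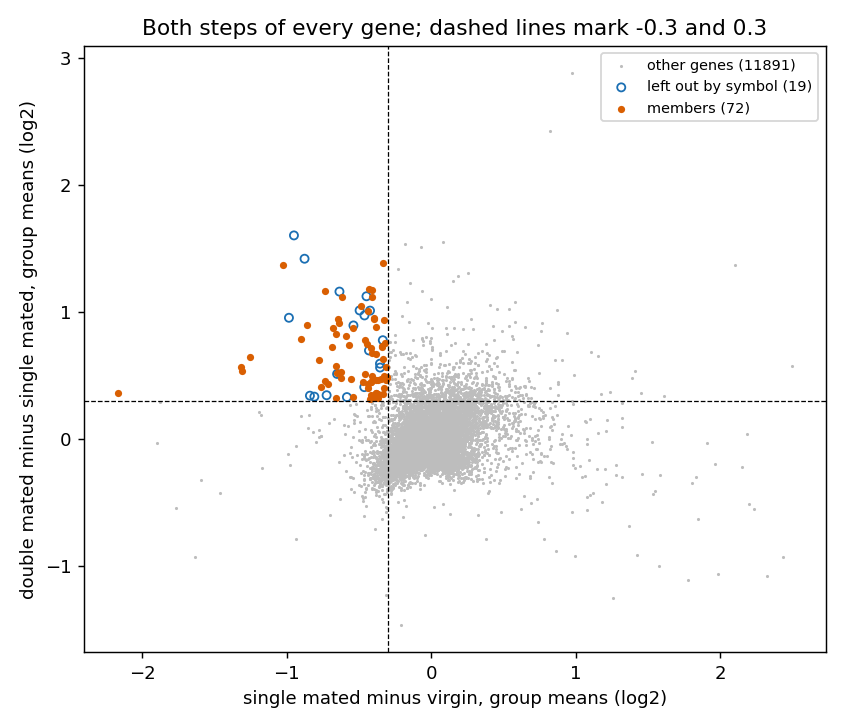
Each point is a gene, with the difference of single mated and virgin group means on the horizontal axis and of double and single mated group means on the vertical axis, both on the log2 scale. The 72 members (filled orange) and the 19 genes set aside by symbol (open blue) lie in the corner beyond the dashed lines at -0.3 and 0.3.

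The dip was a minority pattern among genes that were lower after 1 mating. Of 607 genes whose mean was at least 0.3 lower in single mated females than in virgins, 91 (15%) were at least 0.3 higher again in double mated females. Of all genes, 791 (6.6%) had such a second step, and the single mated mean enters both steps, so nothing is read from the difference between these shares. The reverse shape, a mean at least 0.3 higher after 1 mating and at least 0.3 lower after the second, was met by 50 genes. Among the members the first step ran from -2.17 to -0.30 with a median of -0.43, and the second from 0.31 to 1.39 with a median of 0.57. The medians over all genes were -0.01 and -0.02. The second step was the larger in 45 of 72 members.

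The members' mean signal over the 12 arrays ran from 5.11 to 12.17, with a median of 8.04 against 8.06 over all genes. A mean under 6, taken as dim, was found in 7 members: Kua, CG7227, asRNA:CR42871, Spn47C, CG34054, CG13138 and CG9664. Replicate error was larger among them than among genes at large, the pooled SD within groups having a median of 0.21 against 0.11. In 48 of 72 members all 4 single mated arrays lay below all 4 virgin arrays, a separation met by 16.7% of all genes. All 4 single mated arrays lay below all 4 double mated arrays in 51 members, against 6.99% of all genes. Both held in 41 members, against 0.901% of all genes, and neither held in 14. These separations come from the contrasts that chose the members and describe only how cleanly each dip stood out from its replicates.

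**Figure D2:**
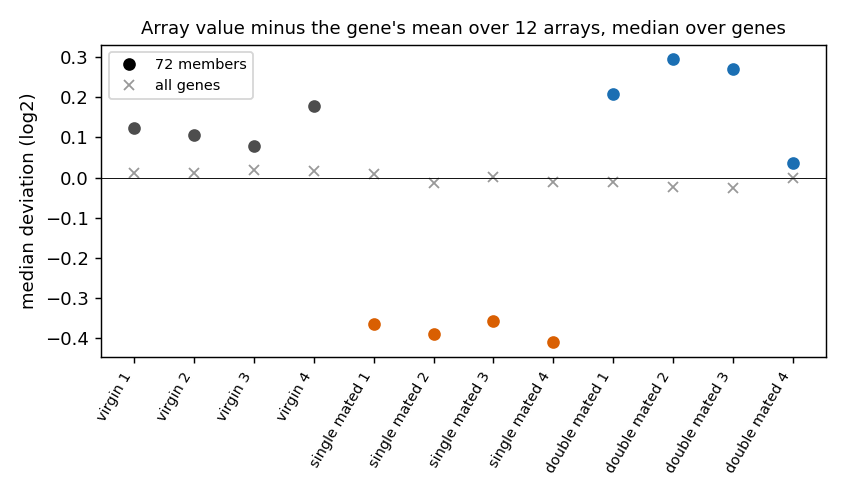
For each array (horizontal axis, by group and replicate) the filled point is the median over the 72 members of the array's value minus the gene's mean over all 12 arrays, in log2 units, and the cross is the same over all genes. The 4 single mated arrays lie between -0.41 and -0.36, and double mated replicate 4, at 0.04, lies below the other 3 double mated arrays.

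Array by array, the members were low on every single mated array, where their median deviation from their own 12-array mean was -0.41 to -0.36. It was 0.08 to 0.18 on the virgin arrays. On double mated replicates 1 to 3 it was 0.21 to 0.30, and on replicate 4 it was 0.04. The return after the second mating was thus smaller on replicate 4 than on the other double mated arrays. With that array left out, the second step was larger in 56 of 72 members, and 69 of them still met the threshold. Those that did not were Mal-A8, Ccs and asRNA:CR42871, with second steps of 0.14, 0.16 and 0.21 over the other 3 arrays. The means of these same arrays chose the members. The low single mated arrays, and the number kept without replicate 4, were therefore largely fixed in advance and only describe the list.

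Ecdysteroid kinase-like genes formed the largest gene family recognised among the members, with 6 of 44 measured genes on the list (13.6%), while members made up 0.601% of all genes. The list was written with earlier results of these data known, so nothing is read from the difference between such shares. Cytochrome P450 genes, of which 9 met the thresholds, had been set aside by symbol. Among the 6 kinase-like members, CG31104 had the largest smaller step. It read 9.73, 9.22, 9.53 and 9.74 in virgins, 8.85, 8.82, 8.70 and 8.39 in single mated females and 9.49, 9.54, 9.52 and 9.79 in double mated females. Group means differed by -0.86 and 0.89, the single mated arrays lay below all others, and the double mated minus virgin difference was 0.03 (95% interval -0.23 to 0.30). CG11878 read 8.85, 8.44, 8.66 and 8.77 in virgins, 8.24, 7.86, 8.27 and 8.19 in single mated females and 9.22, 9.09, 8.67 and 9.06 in double mated females. Its steps were -0.54 and 0.87, again with no overlap between single mated arrays and either other group. CG31300 read 7.97, 7.97, 8.21 and 8.12 in virgins, 7.16, 7.59, 7.66 and 7.35 in single mated females and 7.86, 8.12, 7.75 and 8.13 in double mated females. Its steps were -0.63 and 0.53, with the same separation.

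CG16898 read 7.95, 7.60, 7.97 and 7.44 in virgins, 6.55, 6.36, 6.52 and 6.51 in single mated females and 7.88, 6.69, 6.78 and 7.18 in double mated females. Single mated arrays formed a tight low group, while the double mated values were spread, and only replicate 1 reached the virgin range. The steps were -1.25 and 0.65, and from virgin to double mated females the level fell by 0.61 (SE 0.20, limma adjusted p = 0.0377). That call ended when virgin replicate 1 or 3, or double mated replicate 2, 3 or 4, was left out (limma adjusted p = 0.0556 to 0.122). CG6834 averaged 7.90 ± 0.07 in virgins, 7.58 ± 0.08 after 1 mating and 8.51 ± 0.11 after both matings (SD, n = 4). Its second step of 0.93 was much larger than its first of -0.33, and it rose from virgin to double mated females by 0.61 (SE 0.07, limma adjusted p = 2.86e-05), with all 4 double mated arrays above all virgin arrays. Its first step missed the threshold without virgin replicate 2 or single mated replicate 4. CG13658 averaged 7.08 ± 0.11 in virgins, 6.75 ± 0.56 after 1 mating and 7.10 ± 0.63 after both matings. Its single and double mated arrays were widely spread and overlapped the virgin arrays. The steps of CG13658 were -0.33 and 0.36, and the second was 0.60 without double mated replicate 4. CG13658 left the list of members without virgin replicate 4, single mated replicate 3 or double mated replicate 3.

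The family as a whole did not share the dip. With CG6830 included, 45 ecdysteroid kinase-like genes were measured, and 7 met both thresholds (15.6%, against 0.759% of all genes). CG6830 itself had steps of -0.88 and 1.42. In the opposite direction, 12 genes of the family (26.7%) were at least 0.3 higher after 1 mating, among them CG9498 with steps of 1.28 and -0.20 and CG31974 with 1.10 and 0.15. The share of all genes with such a rise was not computed, so this count is given as a description only. CG33510 had the reverse shape of the dip, with steps of 1.78 and -1.11, and so did CG13360, with 0.69 and -0.31. Just short of the thresholds were CG6908 (-0.28 and 0.65), CG31380 (-0.41 and 0.28) and CG31102 (-0.27 and 0.47). The list medians were -0.03 and 0.15.

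**Figure D3:**
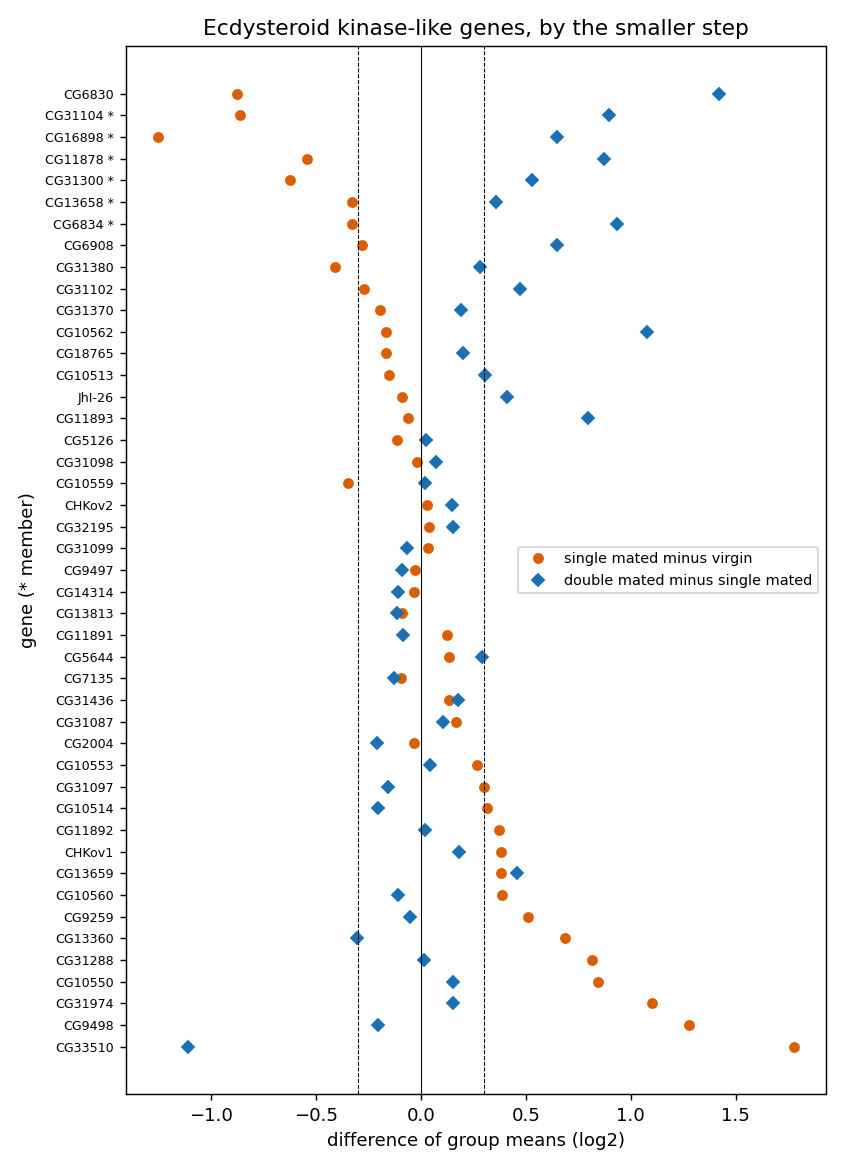
Each row is a measured ecdysteroid kinase-like gene, ordered by the smaller of its 2 steps, with the single mated minus virgin difference of group means (circles) and the double minus single mated difference (diamonds) on the log2 scale. The 7 genes at the top lie beyond both dashed lines at -0.3 and 0.3, and the genes at the bottom are displaced the other way after 1 mating, up to 1.78 for CG33510.

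Genes of sugar handling made up 7 members, with roles in digestion, transport and glucose production. Pepck1, phosphoenolpyruvate carboxykinase of gluconeogenesis, read 12.23, 12.15, 12.11 and 12.65 in virgins, 12.09, 11.41, 11.18 and 12.11 in single mated females and 12.37, 12.33, 12.84 and 12.50 in double mated females. Its steps were -0.59 and 0.81. Single mated replicates 2 and 3 were low, while replicates 1 and 4 lay near the lowest virgin arrays. All single mated arrays lay below all double mated arrays. CG6484, a predicted sugar transporter, read 10.39, 9.93, 10.07 and 10.85 in virgins, 9.26, 8.74, 9.09 and 8.91 in single mated females and 9.82, 9.49, 9.37 and 9.47 in double mated females. The 3 groups did not overlap: single mated females were lowest and double mated females were intermediate. The steps were -1.31 and 0.54, and the double mated level fell by 0.77 from that of virgins (SE 0.17, limma adjusted p = 0.00343).

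CG1208, another predicted sugar transporter, read 8.33, 7.75, 8.05 and 8.63 in virgins, 7.90, 7.49, 7.28 and 7.15 in single mated females and 7.76, 8.08, 7.94 and 7.86 in double mated females. Its steps were -0.73 and 0.45, and the groups overlapped through single mated replicate 1. CG11594, a predicted carbohydrate kinase, read 8.94, 8.77, 8.74 and 8.78 in virgins, 8.24, 8.07, 8.43 and 8.28 in single mated females and 8.65, 8.91, 8.91 and 8.44 in double mated females. Its single mated arrays lay below both other groups, with steps of -0.56 and 0.47. Tret1-1, a transporter of trehalose, the blood sugar of insects, averaged 10.64 ± 0.05 in virgins, 10.27 ± 0.13 after 1 mating and 10.73 ± 0.07 after both matings. Its steps of -0.37 and 0.46 were small, yet the single mated arrays did not overlap those of either other group.

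Among the maltases, which split dietary disaccharides in the midgut, Mal-A8 and Mal-A3 were members. Mal-A8 averaged 9.70 ± 0.47 in virgins, 7.53 ± 0.25 after 1 mating and 7.89 ± 0.64 after both matings. Its first step of -2.17 was the most negative of all members while its second was 0.36. From virgin to double mated females it fell by 1.81 (SE 0.27, limma adjusted p = 0.000221). The second step missed the threshold without single mated replicate 4, double mated replicate 1 or double mated replicate 4, and was 0.14 without the last of these. Mal-A3 averaged 9.37 ± 0.23 in virgins, 8.83 ± 0.23 after 1 mating and 9.16 ± 0.29 after both matings, with overlapping groups. It left the list of members without single mated replicate 3 or 4 or double mated replicate 2. Of the 4 maltase genes between Mal-A3 and Mal-A8 on the chromosome, none met both thresholds. Mal-A4, Mal-A5 and Mal-A6 had steps of -0.41 and 0.07, -0.06 and 0.15 and -0.94 and -0.05, and Mal-A7 was lower at both steps, at -1.63 and -0.93.

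Across the 7 sugar genes the double mated level minus the virgin level had a median of -0.21, and 2 of them, CG6484 and Mal-A8, were called lower and none higher, against 15.7% and 12.3% of all probe sets, and with so few genes nothing is read from these counts. Gut carbohydrases had 2 of 18 measured genes among the members, 11 at least 0.3 lower after 1 mating and 3 at least 0.3 higher after the second, while the shares over all genes were 0.601%, 5.07% and 6.6%. This list too was written with earlier results of these data known. The list of glycolysis and sugar metabolism had 2 of 22 measured genes among the members, Pepck1 and Tret1-1.

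Several members report or respond to nutritional state. Sirup, an assembly factor of succinate dehydrogenase named for its increase under starvation, read 10.88, 10.83, 10.83 and 10.81 in virgins, 10.44, 10.54, 10.37 and 10.27 in single mated females and 11.08, 10.75, 10.86 and 10.66 in double mated females. The virgin arrays were nearly identical, the single mated arrays lay below both other groups, the steps were -0.44 and 0.43, and the double mated minus virgin difference had a 95% interval of -0.19 to 0.18. Gbp1, a growth-blocking peptide of the fat body that acts on insulin-producing cells and on immunity, averaged 7.94 ± 0.02 in virgins, 7.56 ± 0.05 after 1 mating and 8.44 ± 0.15 after both matings. Its 3 groups did not overlap, single mated females being lowest and double mated females highest, and it rose by 0.50 from virgin to double mated females (SE 0.07, limma adjusted p = 0.000131).

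Lst, the gene of limostatin, a peptide hormone that suppresses insulin secretion when food is short, averaged 10.16 ± 0.18 in virgins, 9.76 ± 0.35 after 1 mating and 10.71 ± 0.41 after both matings. Its first step rested on single mated replicate 4, at 9.25 with the other 3 arrays at 9.86 or above, and without that array the gene left the list. It rose by 0.54 from virgin to double mated females (SE 0.19, limma adjusted p = 0.0454), a call that held under 8 of 20 alternatives. It ended without any 1 of the virgin arrays, of double mated replicates 1 to 3 or of single mated replicates 2 and 3 (limma adjusted p = 0.0526 to 0.138). Without double mated replicate 4 the increase was 0.73 (limma adjusted p = 0.00356). The juvenile hormone receptor gene gce averaged 6.20 ± 0.19 in virgins, 5.82 ± 0.32 after 1 mating and 6.18 ± 0.34 after both matings. Its groups overlapped, and it left the list without virgin replicate 4, single mated replicate 4 or double mated replicate 3. A second gce probe set, at 5.85, 5.81 and 5.81 in the same order, did not show the dip.

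Members related to proteins of immune type numbered 3. CG30281, with a predicted fibrinogen-type domain, read 6.79, 6.68, 6.73 and 6.46 in virgins, 5.75, 5.91, 5.47 and 5.92 in single mated females and 6.78, 6.63, 6.39 and 6.39 in double mated females. Group means differed by -0.90 and 0.79, and the single mated arrays were clear of both other groups. CG12780, related to the Gram-negative binding proteins of microbial recognition, read 8.24, 7.74, 8.19 and 8.14 in virgins, 7.42, 7.19, 7.47 and 7.12 in single mated females and 8.24, 7.90, 7.84 and 7.70 in double mated females. Its steps were -0.78 and 0.62, with the same separation. The C-type lectin gene lectin-33A read 6.87, 7.62, 7.46 and 7.39 in virgins, 6.24, 6.76, 6.34 and 7.73 in single mated females and 8.00, 7.55, 7.43 and 7.04 in double mated females. Its groups overlapped, since single mated replicate 4 was higher than every virgin array.

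Proteases and their inhibitors made up 6 members. CG16704, a predicted Kunitz-type protease inhibitor, read 10.23, 10.05, 10.67 and 10.86 in virgins, 9.94, 9.82, 9.78 and 9.52 in single mated females and 10.58, 10.57, 10.65 and 10.14 in double mated females. Group means differed by -0.69 and 0.72, and double mated replicate 4 was the lowest of its group. The neighbouring CG16713, also a predicted Kunitz-type inhibitor, averaged 9.50 ± 0.06 in virgins, 9.11 ± 0.09 after 1 mating and 10.06 ± 0.16 after both matings. Its 3 groups did not overlap, and it rose by 0.56 from virgin to double mated females (SE 0.08, limma adjusted p = 0.00012).

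CG7542, a predicted trypsin-like serine protease, read 11.52, 11.48, 11.70 and 11.73 in virgins, 10.92, 11.09, 11.25 and 10.57 in single mated females and 12.17, 12.03, 12.03 and 11.40 in double mated females. Group means differed by -0.65 and 0.95, and all single mated arrays lay below both other groups. Its difference between double mated and virgin females of 0.30 was not called (limma adjusted p = 0.192), but was called higher without double mated replicate 4 (0.47, adjusted p = 0.013). Nepl9, a neprilysin-like metallopeptidase gene, read 6.98, 7.02, 6.87 and 7.35 in virgins, 6.58, 6.28, 6.57 and 6.18 in single mated females and 6.91, 7.03, 6.91 and 6.83 in double mated females. Its steps were -0.65 and 0.52, with single mated arrays below both other groups. The serine protease gene CG30002 and the serpin gene Spn47C had smaller dips, with steps of -0.38 and 0.36 and of -0.33 and 0.40. CG30002 left the list of members without double mated replicate 3, and Spn47C without virgin replicate 1 or 4 or single mated replicate 1 or 4.

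For comparison, of 13 measured genes on the list of antimicrobial peptides and immune effectors, 0 were at least 0.3 lower after 1 mating and 8 at least 0.3 higher after the second, with list medians of 0.10 and 0.39. Over all genes these shares were 5.07% and 6.6%, so the absence of a first fall in a list of this size is near the overall share. The bomanins, short peptides induced by Toll signalling, were set aside here by symbol, and 5 of 8 measured met both thresholds, against 0.759% of all genes. BomBc2 had the largest smaller step of them, at 11.28, 10.30 and 11.25 in virgin, single and double mated females, followed by BomS6, BomS4, BomT2 and BomT3.

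Other enzymes made up 10 members. The alkaline phosphatase gene phu read 7.21, 7.30, 8.10 and 6.58 in virgins, 6.34, 6.95, 6.57 and 6.39 in single mated females and 7.49, 8.07, 8.17 and 7.20 in double mated females. Group means differed by -0.74 and 1.17, but virgin replicate 4 lay within the single mated range. Srr, serine racemase, read 8.17, 8.27, 8.12 and 7.93 in virgins, 7.83, 7.25, 7.47 and 7.39 in single mated females and 8.69, 8.33, 8.44 and 8.13 in double mated females. Its steps were -0.64 and 0.91, and its single mated arrays lay below both other groups. AOX1, an aldehyde oxidase, read 10.62, 10.16, 10.35 and 10.64 in virgins, 9.90, 9.99, 9.94 and 10.06 in single mated females and 10.35, 10.40, 10.44 and 10.49 in double mated females. Its steps of -0.47 and 0.45 were close to each other in size, and the separation was the same.

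Sid, a DNase gene named for its induction by stress, read 5.99, 5.89, 5.84 and 6.18 in virgins, 5.33, 5.68, 5.58 and 5.57 in single mated females and 6.56, 6.49, 5.79 and 7.33 in double mated females. Double mated values were spread, from below the virgin mean to well above every virgin array, and the steps were -0.44 and 1.00. The second step was 0.74 without double mated replicate 4, which read 7.33. The sulfotransferase gene pip, known for setting the dorsal-ventral axis from the ovarian follicle cells, read 7.77, 8.05, 8.14 and 7.87 in virgins, 7.40, 7.57, 7.41 and 7.67 in single mated females and 8.11, 8.56, 8.47 and 7.92 in double mated females. Its steps were -0.44 and 0.75 on the probe set with the highest signal. The other 9 pip probe sets had group means of at most 4.62, and none met the thresholds.

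Smaller dips were found for Cyt-b5-r, a cytochrome b5-related gene (-0.39 and 0.33), Fa2h, fatty acid 2-hydroxylase (-0.33 and 0.50), and Adgf-D, an adenosine deaminase-related growth factor (-0.31 and 0.49). Each of these left the list of members when certain single arrays were left out, 3 arrays in each case. The esterase gene alpha-Est2 averaged 8.11 ± 0.32 in virgins, 7.72 ± 0.54 after 1 mating and 8.39 ± 0.44 after both matings, with overlapping groups, and left the list without virgin replicate 2 or 3 or single mated replicate 2 or 4. For Ccs, the copper chaperone of superoxide dismutase, double mated replicate 4 read 8.61, while the other double mated arrays read 6.17 to 6.43, and its second step was 0.16 without replicate 4. The list of esterases and hydrolases had 1 member among 13 measured genes, with medians of -0.03 and 0.09.

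Detoxification genes of other families met the thresholds as well but were set aside by symbol. They were 9 of 84 measured cytochrome P450 genes (Cyp12a5, Cyp9b2, Cyp12d1-d, Cyp4e1, Cyp4p2, Cyp6d5, Cyp4s3, Cyp28d1 and Cyp309a1) and 4 of 35 UDP-glycosyltransferase genes (Ugt37A2, Ugt35C1, Ugt303A1 and Ugt304A1). Ugt37A2 had steps of -0.95 and 1.60, and Cyp12a5 of -0.64 and 1.16. None of 34 glutathione transferases and none of 47 odorant-binding protein genes met them, and over all genes 0.759% did, so that counts of 0 are near the overall share.

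Among transporters and receptors, CG7227, a predicted scavenger receptor of the CD36 family, read 5.95, 5.89, 6.11 and 5.68 in virgins, 5.37, 5.18, 5.25 and 5.33 in single mated females and 5.69, 5.76, 5.95 and 5.65 in double mated females. Its steps were -0.62 and 0.48, and its single mated arrays lay below both other groups. The related santa-maria, which takes up carotenoids for vision, averaged 8.22 ± 0.04 in virgins, 7.92 ± 0.12 after 1 mating and 8.40 ± 0.08 after both matings, and its first step of -0.30 was the closest to the threshold. It left the list of members without virgin replicate 4 or single mated replicate 1, 3 or 4. CG9664, a predicted ABC transporter of the G family, averaged 6.21 ± 0.13 in virgins, 5.56 ± 0.18 after 1 mating and 5.87 ± 0.22 after both matings and fell by 0.34 from virgin to double mated females (SE 0.11, limma adjusted p = 0.0335). That call was lost on leaving out virgin replicate 1, 2 or 4, or double mated replicate 1 or 4 (limma adjusted p = 0.0568 to 0.0967). CG9664 left the list of members without single mated replicate 2 or double mated replicate 2 or 3. Ir76a, an ionotropic chemoreceptor gene, had steps of -0.72 and 0.43. The leucine-rich repeat gene cDIP had -0.76 and 0.41.

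A further 29 members are named here without a role. Of all members, CG13482 had the largest smaller step. It read 9.42, 9.38, 9.18 and 9.81 in virgins, 8.59, 8.20, 8.32 and 8.56 in single mated females and 10.81, 9.51, 9.60 and 9.22 in double mated females. Group means differed by -1.03 and 1.37, and the single mated arrays lay below both other groups, while double mated replicate 1 stood far above the rest. CG34330 read 10.74, 10.41, 10.25 and 10.26 in virgins, 9.54, 9.68, 9.88 and 9.90 in single mated females and 10.40, 10.89, 10.83 and 10.19 in double mated females. Its steps were -0.66 and 0.83, and its single mated arrays lay below both other groups. CG32302 read 8.02, 8.28, 8.18 and 8.19 in virgins, 7.74, 6.77, 8.24 and 7.22 in single mated females and 8.80, 8.59, 8.43 and 7.67 in double mated females. Its single mated arrays were widely spread and overlapped both other groups, and its steps were -0.68 and 0.88.

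CG9568 read 10.79, 10.63, 10.46 and 10.29 in virgins, 9.82, 9.76, 9.95 and 10.16 in single mated females and 11.70, 11.34, 10.87 and 10.25 in double mated females. Its steps were -0.62 and 1.12, and double mated replicate 4 was the only one of its group within or below the virgin range. CG15293 read 11.76, 11.51, 11.57 and 11.64 in virgins, 10.72, 10.82, 11.23 and 11.07 in single mated females and 11.47, 11.58, 11.56 and 11.52 in double mated females. Its double mated arrays were close together and its single mated arrays lay below both other groups, with steps of -0.66 and 0.57. CG1648 read 11.55, 11.47, 11.63 and 11.60 in virgins, 10.95, 11.25, 11.15 and 11.06 in single mated females and 11.46, 11.40, 11.77 and 11.82 in double mated females. The steps of -0.46 and 0.51 came with the same separation. CG13138 read 5.61, 6.20, 5.78 and 5.76 in virgins, 5.24, 5.40, 5.32 and 5.56 in single mated females and 5.77, 6.63, 6.02 and 6.23 in double mated females. It was dim, and its steps were -0.46 and 0.78.

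CG42807 read 10.07, 9.53, 10.07 and 9.80 in virgins, 8.81, 8.32, 8.77 and 8.29 in single mated females and 9.37, 9.24, 8.39 and 9.47 in double mated females. Double mated replicate 3 remained in the single mated range, and no double mated array reached a virgin array. From virgin to double mated females the gene fell by 0.75 (SE 0.21, limma adjusted p = 0.0141). CG33494 read 8.30, 8.40, 8.20 and 8.18 in virgins, 7.84, 8.25, 7.48 and 7.56 in single mated females and 8.81, 8.96, 8.82 and 8.73 in double mated females. Its second step of 1.05 exceeded its first of -0.49, and it rose by 0.56 from virgin to double mated females (SE 0.13, limma adjusted p = 0.00497). All 4 double mated arrays lay above all virgin arrays.

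Among the other members without a role, CG31769 averaged 8.36 ± 0.03 in virgins, 7.94 ± 0.12 after 1 mating and 8.39 ± 0.04 after both matings, with tight groups and all single mated arrays below both others. CG4716 and CG34136 also had all single mated arrays below both other groups, with steps of -0.35 and 0.47 and of -0.38 and 0.46. So did CG9084 (-0.42 and 0.71) and CG3270 (-0.37 and 0.32). The antisense transcript asRNA:CR42871 was separate too but dim, at 5.85 ± 0.19 in virgins, 5.44 ± 0.29 after 1 mating and 5.76 ± 0.21 after both matings. For Reg-2, CG9691 and CG9119 the single mated arrays were below the virgin arrays only, and for CG11275 and CG11658 below the double mated arrays only. Kua, CG34054, CG9616, CG4250 and CG11162 had overlapping groups on both sides.

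**Figure D4:**
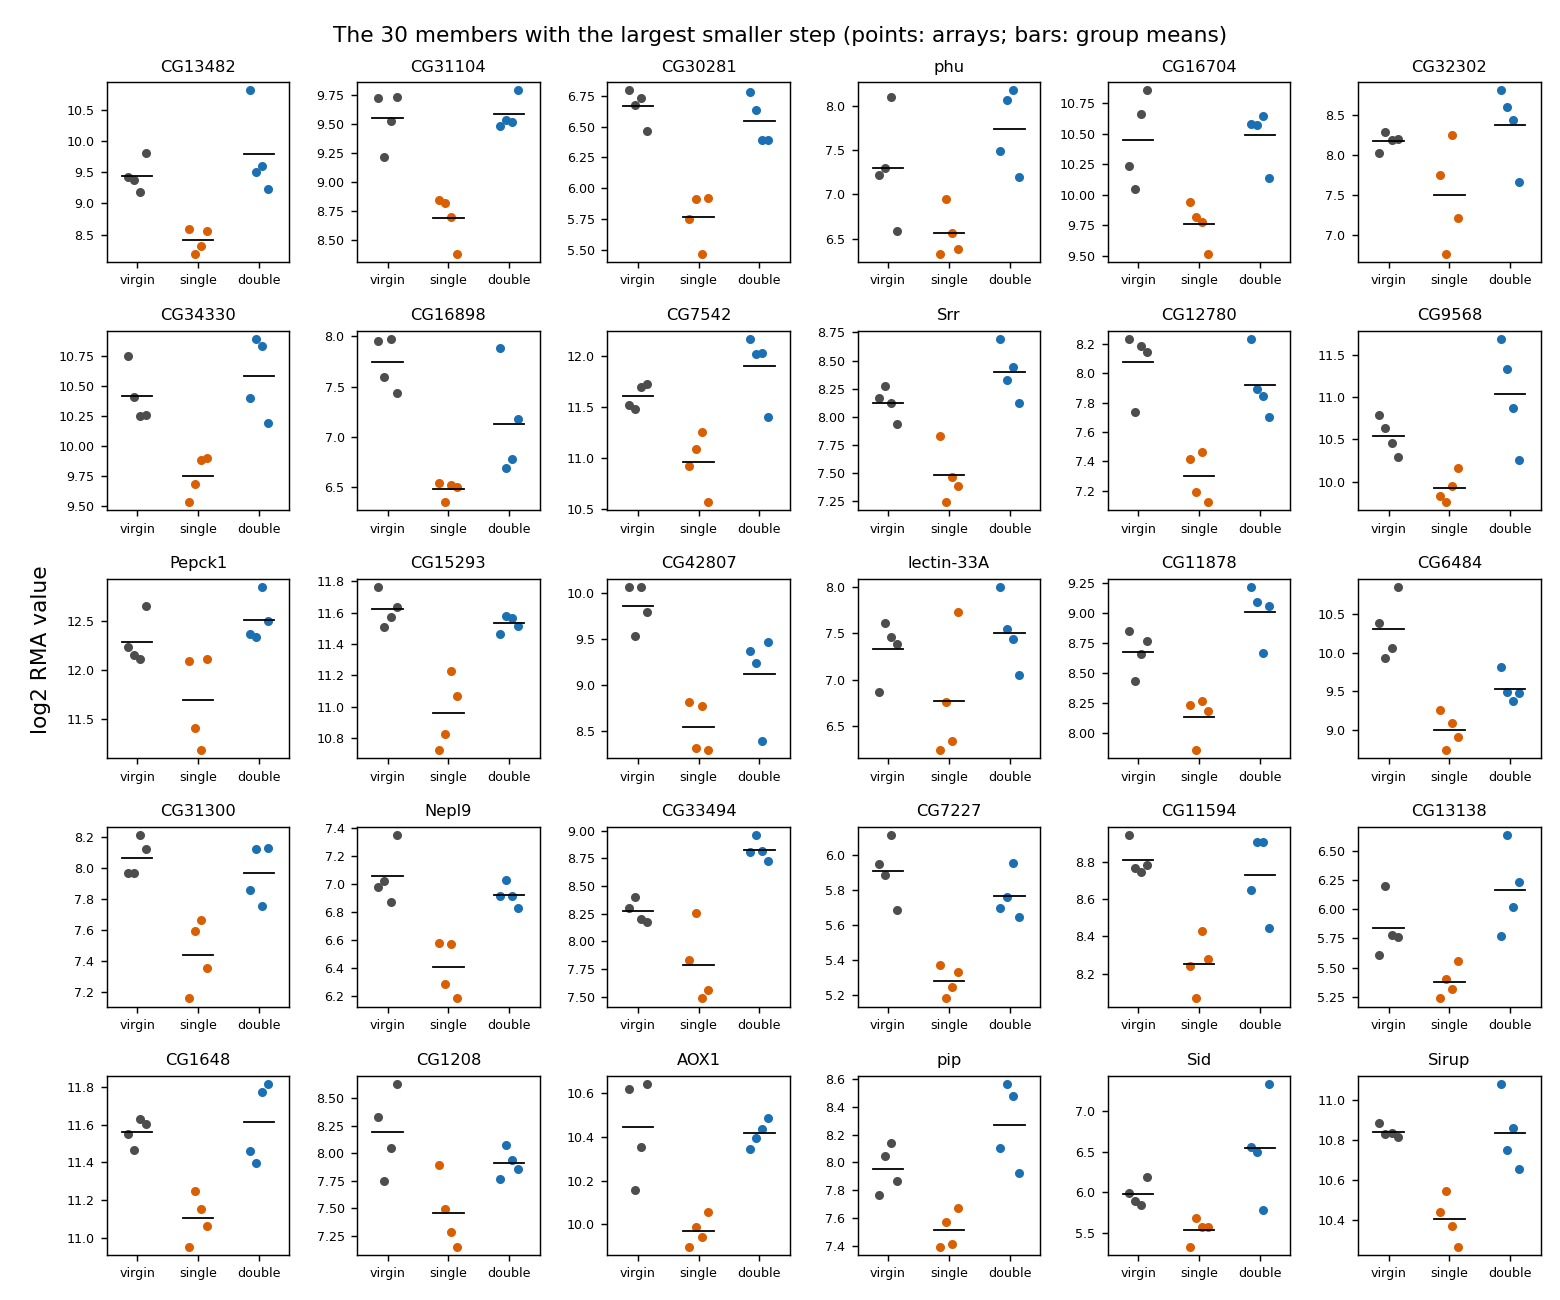
Each panel is 1 of the 30 members with the largest smaller step, with the log2 value on every array (points) and the group mean (bars) for virgin, single mated and double mated females. The orange single mated points lie below every other point in most panels, and they overlap another group in panels such as CG32302, lectin-33A and CG1208.

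Double mated females were then compared with virgins, to ask whether the level after the second mating returned to that of unmated females. The thresholds set neither the sign nor the size of this contrast, though it is computed from the same arrays. In limma, 11 of 72 members rose and 5 fell, or 22.2% in all, while over all probe sets 12.3% rose and 15.7% fell, or 28.1% in all. The contrast is the sum of the steps that chose the members, and their replicate SD was larger than that of all genes, so nothing is read from the difference between these shares. An unadjusted p under 0.05 in limma was reached by 24 members (33.3%). The share over all probe sets was not computed but is at least the 28.1% called after adjustment, so nothing is read from this count. The median difference over the members was 0.09, against -0.02 over all genes. Of the 56 members not called, 46 had double mated and virgin means within 0.3 of each other. Among all members, the double mated mean was at least 0.3 above the virgin mean in 20 and at least 0.3 below it in 6. The share of all genes within 0.3 was not computed, so nothing is read from these counts about a return to the virgin level.

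The 5 that fell, CG16898, CG6484, Mal-A8, CG42807 and CG9664, are described above, as are CG6834, Gbp1, Lst, CG16713 and CG33494 among those that rose. Of the others that rose, CG13309 averaged 8.51 ± 0.27 in virgins, 8.17 ± 0.45 after 1 mating and 9.56 ± 0.54 after both matings and had the largest increase from virgin to double mated females, at 1.05 (SE 0.25, limma adjusted p = 0.00548). The long non-coding RNA lncRNA:CR33942 averaged 7.08 ± 0.14 in virgins, 6.67 ± 0.24 after 1 mating and 7.84 ± 0.33 after both matings and rose by 0.77 (limma adjusted p = 0.0012). CG15784 averaged 8.58 ± 0.21 in virgins, 8.14 ± 0.07 after 1 mating and 9.33 ± 0.26 after both matings and rose by 0.75 (limma adjusted p = 0.000332). These groups were separate for lncRNA:CR33942 and CG15784, while for CG13309 the single mated arrays overlapped the virgin arrays. CG13102 averaged 8.50 ± 0.26 in virgins, 8.09 ± 0.17 after 1 mating and 9.21 ± 0.38 after both matings and rose by 0.70 (limma adjusted p = 0.00555). CG17124 averaged 9.32 ± 0.12 in virgins, 9.00 ± 0.03 after 1 mating and 9.76 ± 0.22 after both matings and rose by 0.44 (limma adjusted p = 0.00252). CG5506 averaged 11.55 ± 0.13 in virgins, 11.21 ± 0.11 after 1 mating and 11.93 ± 0.27 after both matings and rose by 0.38 (limma adjusted p = 0.0201), a call lost when virgin replicate 3, or double mated replicate 2 or 3, was left out (limma adjusted p = 0.0543 to 0.0695). Without double mated replicate 4 it rose by 0.51 (limma adjusted p = 0.000449). The double mated arrays lay above all virgin arrays in 9 of 72 members (12.5%), against 14.3% of all genes. These were 8 of the 11 that rose and santa-maria, which was not called (limma adjusted p = 0.071). The double mated arrays lay below all virgin arrays in 4 of 72 members (5.56%), against 20.6% of all genes, and these 4 were among the 5 that fell. The steps that chose the members make up this contrast, so nothing is read from the differences in share. A second probe set of CG17124, at a lower signal, had steps of 0.31 and 0.28 and did not dip.

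These counts depended on double mated replicate 4. Without it, 18 members rose and 3 fell, against 13.9% and 17.9% of all probe sets. The 11 increases called on all arrays were kept, and CG7542, Srr, CG9568, pip, CG9084, Kua and CG11658 were added, while CG16898 and CG9664 were no longer called lower.

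**Figure D5:**
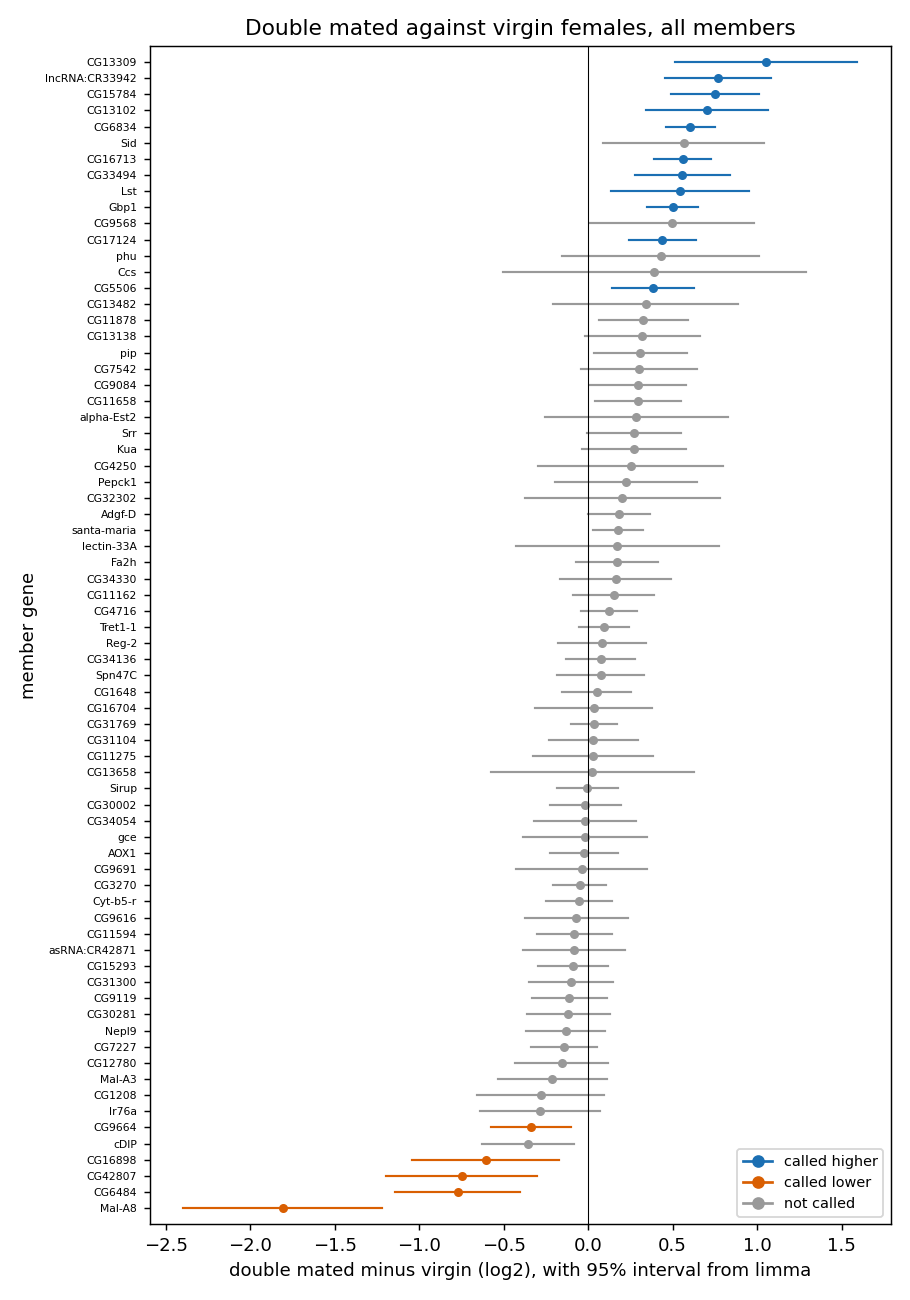
For each member (rows) the point is the double mated minus virgin difference in log2 units and the line its 95% interval from limma over all 12 arrays. The 11 members called higher (blue) reach 1.05 for CG13309, the 5 called lower (orange) reach -1.81 for Mal-A8, and the 56 others (grey) were not called.

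Some members neighbour each other in the genome, a property that the thresholds did not use. How often this holds for lists of other genes was not computed, so nothing is read from the counts of neighbours. In the order of protein-coding genes of the RefSeq table (Release 6 plus ISO1 MT), 70 members could be placed, and 9 of them had another member as their direct neighbour. These were the ecdysteroid kinase-like genes CG31300, CG31104 and CG13658 in a row, and the pairs CG7227 and Sirup, CG9568 and CG13102, and CG15293 and CG31769. The second steps of CG9568 and CG13102 were 1.12 and 1.12, but the second step was used to choose the members, so nothing is read from their likeness. With up to 5 genes between them, 15 members had another member nearby, which added CG11878, CG16704 with CG16713, and Mal-A3 with Mal-A8 and CG12780. Genes in between did not all follow. Between CG11878 and CG31300, CG10513 had steps of -0.15 and 0.31, CG10514 of 0.31 and -0.20 and CG11892 of 0.37 and 0.02. CG3513, between the protease inhibitor genes, had 0.00 and -0.05.

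Of 25 gene lists, 4 held a member, namely ecdysteroid kinase-like genes, gut carbohydrases, glycolysis and sugar metabolism, and esterases and hydrolases. They account for 11 of 72 members. Midgut serine proteases had 0 members among 26 measured genes and medians of 0.32 and 0.23, and eggshell and follicle cell genes 0 among 17 and 0.41 and 0.28. Members made up 0.601% of all genes, so counts of 0 are near the overall share. The remaining lists had no member either: immune recognition and signalling, Turandot stress peptides, thioester proteins and melanization, heat shock and chaperones, lysozymes and lipases, ABC and organic anion transporters, amino acid and one-carbon metabolism, lipid synthesis and storage, fat body secreted and storage proteins, takeout and juvenile hormone binding proteins, circadian clock genes, insulin and neuropeptides, cuticle and chitin proteins, oxidative phosphorylation, histone and chromatin genes, sperm storage gland products, detoxification regulators and Malpighian tubule transport.

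None of the measured markers of 12 tissues was a member, which is near the share of 0.601% over all genes. For none of the 12 lists did the summed level lie lower on all single mated arrays than on all arrays of both other groups. Fat body markers (10 of 10 measured) had median steps of 0.16 and 0.04 and a summed level of 16.42 to 16.55 in virgins, 16.59 to 16.71 after 1 mating and 16.66 to 16.73 after both matings. Midgut markers (8 of 10) had 0.29 and 0.20 and 16.22 to 16.38 in virgins, 16.41 to 16.53 after 1 mating and 16.63 to 16.73 after both matings. The first step had a negative median for germline markers, -0.21 and -0.07, with a summed level of 15.12 to 15.19 in virgins, 14.94 to 15.09 after 1 mating and 14.91 to 15.25 after both matings, and for male accessory gland genes, -0.01 and -0.02. Their part in the dips was not tested.

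The list is cut by thresholds in a continuous range. Just inside were CG9119, CG4250, CG11162, Adgf-D and santa-maria, whose smaller step was 0.30 to 0.315. Just outside were CG14400, CG13841, CG10799, CG43120 and alpha-Est7, at 0.292 to 0.295. Only 4 members had further probe sets with 1 gene symbol. Of the 12 such probe sets, 1 met both thresholds, that of CG4716, with steps of -0.64 and 0.66 against -0.35 and 0.47 on the chosen one. For 5 members (CG11594, Ir76a, lncRNA:CR33942, CG9691 and CG9664) the chosen probe set has the suffix _s_at, a type whose probes can match several transcripts. Probe sets with the suffix _a_at, such as those of Pepck1 and Srr, were not counted here.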

How the data were processed

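RNA of whole females was measured on Affymetrix Drosophila Genome 2.0 arrays, 4 in each of 3 groups, each from its own pool and extraction. The authors deposited log2 values, 1 per probe set, made with RMA and the affy package per the submitters' processing notes (versions not given in the sources used here). RMA's quantile normalization can hide a shift shared by all genes, and arrays carry no read depth, so the number of arrays limits the precision. Of 18952 probe sets, 183 Affymetrix controls were left out, without a filter on signal. Gene symbols came from the platform annotation, and 72 of 72 members had the same symbol in the RefSeq gene table.

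Members and gene lists were chosen with earlier results of these data known, and roles were assigned from general knowledge after the members were seen. Double mated against virgin was fitted in limma 3.58.1 (lmFit, then eBayes, over all 12 arrays, run in R 4.3.3), with Benjamini-Hochberg adjustment over 18769 probe sets and a threshold of 0.05. The fit was also run on simulated normal values with shifts in random probe sets. That run checks the fit only, and not the calls on members chosen by these means. Genes with values on every array are the 30 members with the largest smaller step, and members on a list are named with means. Promoter motifs were planned but not run, as no sequences were used here. Alternatives covered normalization, a signal filter, probe set choice, group medians, thresholds, the variance model, the replicate number as a block, the arrays in the fit and leaving out each array. SD is over arrays. Labels name separate extractions, not separate cultures, so p-values cover the spread between pools.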

Additional observations from a re-analysis of the deposited data

Results flagged for a closer look

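In 108 groups of 4 arrays over the 36 members named by rule, 2 arrays stood apart from the other 3 of their group by Dixon's criterion, which chance meets in about 1 in 20 groups. Both were double mated replicate 4. For the protease inhibitor gene CG16704 it read 10.14, with the nearest other double mated array at 10.57. For the esterase gene alpha-Est2 it read 7.74, with the nearest at 8.56.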

How the results depend on the processing

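The list of 72 members held 72 genes under cyclic loess (64 shared), 96 with each array centred on its median (72 shared), 65 with a mean signal of at least 6, 69 with probe sets of a gene averaged, where pip left it with steps of -0.03 and 0.05, and 77 with group medians (62 shared). Steps of at least 0.25 gave 105 genes and steps of at least 0.4 gave 40. Leaving out each array gave 67 to 87 genes, and 41 members were kept whichever array was left out. Of the steps of named members, 1218 of 1220 alternative values moved by less than the SD between arrays and 0 changed sign. For alternatives that leave out an array this was largely fixed in advance. Only the mean of that array's group then changes, and by less than the SD of that group.

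For double mated against virgin, leaving out each array gave 9 to 18 members higher and 3 to 6 lower, the extremes of 18 and 3 being without double mated replicate 4. An adjusted p under 0.01 left 9 higher and 2 lower. Among genes with steps of at least 0.4, 4 were higher and 3 lower, fewer because fewer genes remain. With the replicate block 14 were higher and 4 lower, CG9664 no longer being called (adjusted p = 0.065). The replicate numbers share only a number: deviations of same-numbered arrays from their group means correlated between -0.26 and 0.14, with 1 of 12 pairs over 0.1. Under all alternatives that could test them, 11 of the 16 calls held. The cause of the lost calls was not tested.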

Other observations

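Beyond genes with a single symbol, 14 of 5122 probe sets with no symbol or several symbols met both thresholds, or 0.273%, against 0.759% of genes. These shares are of unlike units, since each gene stood by its probe set with the highest mean. The other probe sets were not chosen by signal, so nothing is read from the difference.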
